A study of Saccharomyces cerevisiae with 12 samples.

Results

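Yeast in which the glutaminyl tRNA synthetase gene had been shut off was compared with wild-type yeast grown in the same drug, gene by gene. Both strains are haploid *Saccharomyces cerevisiae* of the genotype *MATα his3Δ1 leu2Δ0 lys2Δ0 ura3Δ0*. The wild type is BY4742, and the tetO-*GLN4* strain (McFY or McFY2 in the labels) carries in addition the allele PGLN4::KanMX4-tTA-tetO7, in which a tet-off cassette was inserted at the *GLN4* promoter, so that doxycycline represses transcription of the gene. The tetO-*GLN4* cells therefore also express the tTA activator and a geneticin resistance gene, which the wild type lacks, and the labels do not say whether the strain is a single integrant or carries the epitope tag that some tetO-*GLN4* integrants received. Cultures were grown at 30°C in YEPD with 1 μg/ml doxycycline, overnight and to the same mid-log density, and the same strains without the drug (0 μg/ml) are used here as a reference. The paper reports that doxycycline slowed the growth of tetO-*GLN4*, and that inocula were adjusted for this. Growth rate can therefore not be told apart from the shut-off in the treated comparison. Each of the 4 conditions had 3 cultures, 12 in all, but Cuffdiff had merged the 3 cultures of a condition into a single FPKM (fragments per kilobase of gene, scaled to the number of mapped fragments) with a 95% confidence interval. There is no value per culture, so that no test between the strains was possible and every error given below is that interval. The spread between cultures enters only as far as Cuffdiff put it into the interval.

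Of 7130 listed genes, 7126 had an estimate in both treated strains. Of these, 516 were at 0 in both, 36 at 0 in the wild type alone and 20 at 0 in tetO-*GLN4* alone. The remaining 6554 genes make up the comparison. *TEF1* and *TEF2*, which encode elongation factor eEF1A, the glycolytic gene *TDH3* and the pyruvate decarboxylase gene *PDC1* had no estimate in at least 1 of the treated strains because their loci held too many fragments. For each gene the log2 ratio of FPKM, treated tetO-*GLN4* over treated wild type, was taken and the median over all genes (0.17) subtracted, because the strains had been normalized in separate tables. This centred value is called the log2 ratio from here on. A gene was called higher or lower where the log2 ratio was at least 1 in size, a 2-fold difference, and the intervals of the strains, brought to a common scale, lay apart.

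Aminoacyl tRNA synthetases join each amino acid to its tRNAs, and Gln4p does so for glutamine. In budding yeast a tRNA without its amino acid activates the kinase Gcn2p, which phosphorylates the initiation factor eIF2. General translation then slows while the mRNA of *GCN4* is translated more, and the Gcn4p activator switches on amino acid synthesis genes. Growth-related genes, above all those for ribosomal proteins and ribosome assembly, are regulated through the TOR and protein kinase A pathways and are transcribed less when yeast grow slowly, whereas stress and reserve carbohydrate genes are transcribed more.

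The shut-off gene itself was lower, as the labels require. *GLN4* (YOR168W, chromosome XV, 649303 to 651732 of assembly R64) had an FPKM of 199 in treated wild type (158 to 241) and of 30.5 in treated tetO-*GLN4* (24.1 to 36.9), a log2 ratio of -2.88 (interval -3.30 to -2.45), or 7.34-fold. Its intervals did not overlap. Without the drug the wild type stood at the same FPKM of 199, and tetO-*GLN4* had no estimate because the locus held too many fragments. The paper states, without showing data, that the doxycycline-responsive promoter is stronger than that of native *GLN4*. The untreated tetO-*GLN4* cells used as a reference may therefore express more *GLN4* than wild type, which could not be measured here. Of the nearest listed genes on the chromosome, none was called. The log2 ratio was -0.02 for *SWT1*, -0.94 for the ribosomal protein gene *RPS28A*, 0.72 for YOR170W and 0.68 for the sphingoid base kinase gene *LCB4*. YOR170W and *LCB4* share a locus. YOR169C, which shares the locus of *GLN4*, stood at 100 and 23.6, a log2 ratio of -2.26 that was not called. *LEU2*, *LYS2* and *URA3*, which the strains lack, are listed at 0 in every condition. *HIS3* had an FPKM of 413 in wild-type cells against 963 with the shut-off and was called higher, but its locus in the table also holds YOR203W and *DED1*. The native *GLN4* promoter is given because it is the place at which the strains differ by design. Whether any of it remains beside the cassette was not stated. Shown is the stretch from 300 to 101 bases before the start codon at chrXV:649003-649202 on the forward strand of R64 (RefSeq), and it is in lower case because no motif is marked.
GLN4: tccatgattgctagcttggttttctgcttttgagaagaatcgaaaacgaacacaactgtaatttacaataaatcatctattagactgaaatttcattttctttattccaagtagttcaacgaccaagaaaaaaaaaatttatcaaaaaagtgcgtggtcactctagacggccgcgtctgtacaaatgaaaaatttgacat

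The treated strains differed widely. Of the 6554 genes, 602 (9.19%) were called higher and 606 (9.25%) lower in tetO-*GLN4*, 1208 in total. These 2 percentages are the background for every list that follows. Among the untreated strains the same rule called 135 genes higher (2.06%) and 22 lower (0.335%) of 6562. The log2 ratio had an SD across genes of 0.94 with the drug and of 0.48 without it, against a median half-width of 0.43 for the 95% interval of a single ratio. In the comparison 1234 genes share their locus with another listed gene, 149 of them called, and reads of such genes could not be told apart with certainty, since the libraries were stranded but the counting is not stated to have used strand. Genes with a shared locus that are named below include *STE3*, YLR040C, YLR041W, *ASC1*, *PRM6*, *ARO9*, *LEU4*, *TRP4*, *MET28*, *DAL80*, *RPS22B*, *RPL28*, *EFB1*, *HXK1*, *POL30*, *CTS1*, *GAS1*, *SSA1*, *SSZ1*, *SSB1* and *PSD1*.

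The difference was related to how abundant a transcript was. When genes were put into 10 equal groups by FPKM in treated wild type, the median log2 ratio was 0.82 in the lowest group, -0.03 in the sixth and -0.90 in the highest, so that the medians went down at every step. In the highest group, 268 of 656 genes (40.9%) were called lower and 24 higher. Without the ribosomal protein genes, 160 of 524 of them (30.5%) were still called lower, with a median of -0.73. The rank correlation across genes between the log2 ratio and FPKM was -0.47 for treated wild type, whose FPKM is also the denominator of the ratio, and -0.46 for the untreated wild type, whose FPKM is not. Genes are not independent replicates and these are descriptions. The summed FPKM of all genes was 2.44e+06 in treated wild type and 1.70e+06 in treated tetO-*GLN4*. The plot of log2 ratio against level shows this slope and the isolated genes at both ends.

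**Figure D1:**
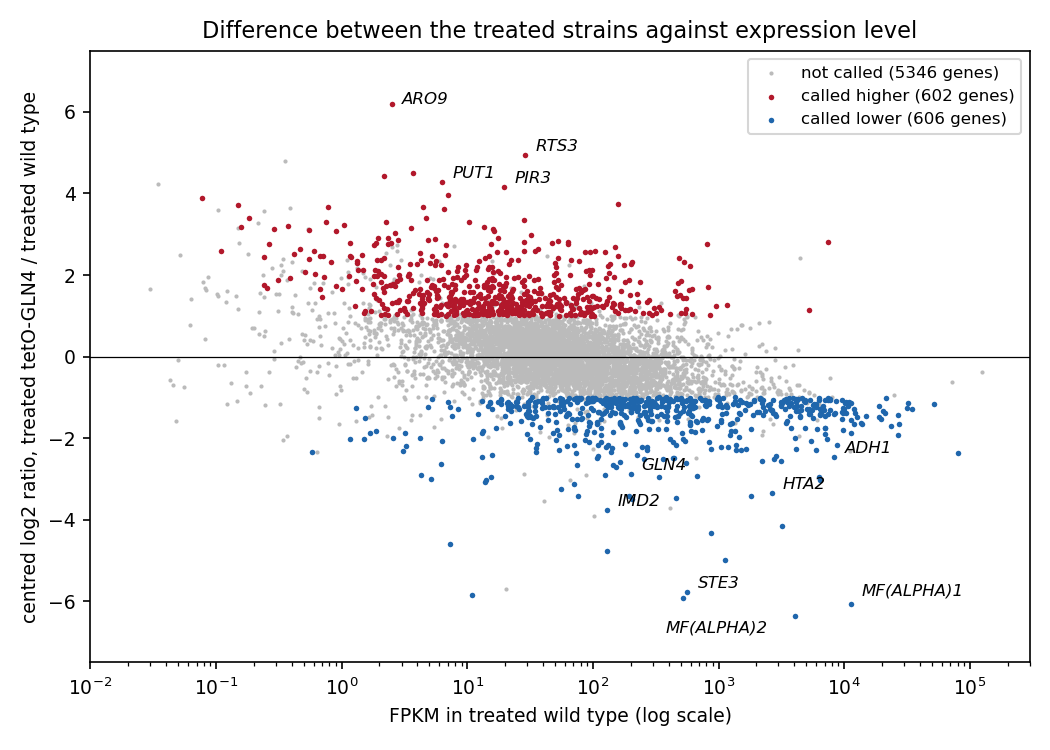
Each point is a gene, with its FPKM in treated wild type on the horizontal axis (log scale) and its centred log2 ratio, treated tetO-GLN4 over treated wild type, on the vertical axis. The 602 genes called higher (red) lie mostly at low and middle levels, and the 606 called lower (blue) reach the highest levels. 3 genes lie outside the axes.

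The counts depended on the scale. Left uncentred, the deposited values gave 798 higher and 403 lower genes, so that 66.4% of the calls were higher against 49.8% with the median. Centring on the mean weighted by FPKM, which lay at -0.54 and adds 0.71 to every log2 ratio, gave 2001 higher and 137 lower genes (93.6% higher). Centring on the median of genes with an FPKM of at least 10 gave 55.6% higher. The ranking of genes is the same under all of these, and lists whose median changes sign are named as such below.

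Genes that define an α cell were among the lowest in treated tetO-*GLN4*. They were the 4 lowest and, with YLR040C, the 5 lowest of the genes with an FPKM of at least 10 in both strains. In α cells the α1 regulator switches on the genes of the α pheromone, of the receptor for a pheromone and of the α agglutinin. *MF(ALPHA)2* (chromosome VII, 344791 to 345153), a pheromone precursor gene, had an FPKM of 4055 in wild type (3213 to 4896) and 55.4 in tetO-*GLN4* (41.3 to 69.4), a log2 ratio of -6.36 (interval -6.84 to -5.89). *MF(ALPHA)1* (chromosome XVI, 193648 to 194145), the main precursor gene, had 11296 (8476 to 14116) and 191 (152 to 230), a log2 ratio of -6.06 (-6.52 to -5.59). For both genes the strains lay far apart, with no overlap, although reads may be divided between these related sequences. The log2 ratio was -5.78 for *STE3*, which encodes the a-factor receptor and overlaps YKL177W, -5.00 for the agglutinin gene *SAG1* and -4.32 for YLR040C. All 5 α-specific genes in the comparison were thus called lower, with a median of -5.78, whereas the untreated strains differed by a median of -0.09 and none was called. Untreated tetO-*GLN4* had an FPKM of 11956 for *MF(ALPHA)1* and of 4373 for *MF(ALPHA)2*. The α1 and α2 genes at *MAT*, and their silent copies at *HML*, are listed at 0 in all conditions, and these identical copies share their reads, so their expression could not be followed.

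Genes of a cells, the opposite mating type, were slightly higher. Of 7 a-specific genes 3 were called higher and none lower, with a median of 1.04. They were *ASG7* (log2 ratio 1.78), the a-factor exporter gene *STE6* (1.4) and the α-factor protease gene *BAR1* (1.18). Levels remained low, at an FPKM of 2.55 to 71.6 in wild type and 9.43 to 141 in tetO-*GLN4*, and *STE2*, which encodes the α-factor receptor of a cells, stood at 7.62 and 10.9 (log2 ratio 0.35). Of the 7 genes 1 was below 0. The median FPKM of the list in treated wild type was 7.62, and all genes in the tenth that holds this level had a median of 0.44. Of 28 genes of the mating pathway, which both cell types use, 15 were called lower and 1 higher, with a median of -1.06. The lowest were *PRM6* (-5.84, at an FPKM of 10.9 against 0.214, and overlapping another gene), the cell fusion gene *FIG1* (-4.60) and the agglutinin anchor gene *AGA1* (-3.42). The exception was the pheromone-regulated membrane protein gene *PRM5*, at 1.65. *STE5*, which encodes the scaffold of the kinase cascade, was at 0.01, and the kinase gene *STE11* at 0.81, neither of them called. Among 10 haploid-specific genes, a list added after the values had been seen, 6 were called lower. All of the 10 except *HO*, *RME1*, *AXL1* and *NEJ1* are also in the mating pathway list, so the lists are not separate results. The mating-type switching endonuclease gene *HO* stood at 128 in wild type and 5.27 in tetO-*GLN4* (-4.77). The promoter of *PRM6* is shown as the lowest called gene of the mating list with a pheromone response element, the site of the Ste12p activator. The stretch is chrXIII:181176-181375 on the reverse strand, with TGAAACA in capitals.
PRM6: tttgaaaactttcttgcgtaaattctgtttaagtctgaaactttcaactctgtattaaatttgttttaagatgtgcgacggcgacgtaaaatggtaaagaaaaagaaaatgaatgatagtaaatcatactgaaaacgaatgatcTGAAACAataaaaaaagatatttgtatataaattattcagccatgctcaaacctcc

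Outside the mating genes, the lowest genes with an FPKM of at least 10 in both strains came from several functions. *MRH1*, which encodes a plasma membrane protein, had an FPKM of 3192 in wild type and 203 in tetO-*GLN4* (log2 ratio -4.14, interval -4.61 to -3.68). *IMD2*, an IMP dehydrogenase gene of GTP synthesis, had 130 and 10.7 (-3.77), and the thiamine-repressible acid phosphatase gene *PHO3* had 205 and 20.4 (-3.50). *URA1*, the dihydroorotate dehydrogenase gene of pyrimidine synthesis, had 1822 and 193 (-3.41), and the histone H2A gene *HTA2* had 2659 and 294 (-3.35). YLR041W, which shares its locus with YLR040C, was at -3.46. None of these genes was called in the untreated strains, where their log2 ratios lay between -0.61 and 0.36.

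At the other end, among genes with an FPKM of at least 10 in both strains, *RTS3* (chromosome VII, 808629 to 809420), which encodes a putative protein phosphatase component, had an FPKM of 28.9 in wild type (22.3 to 35.5) and 996 in tetO-*GLN4* (763 to 1230), a log2 ratio of 4.94 (interval 4.46 to 5.41) or 30.6-fold. *PIR3*, a cell wall glycoprotein gene, followed with 19.6 and 395 (4.17, 3.69 to 4.64), and then *ICY2* with 160 and 2411 (3.75). Sulfur and aromatic amino acid metabolism supplied the cystathionine β-lyase gene *STR3* (3.35), the regulator gene *MET28* (2.98), the decarboxylase gene *ARO10* (3.31) and the minor pyruvate decarboxylase gene *PDC5* (3.09). The heat shock genes *HSP78* (2.90) and *HSP42* (2.81) were among the 12 highest as well, together with the short open reading frames YHR022C-A (3.18), YMR315W-A (3.13) and YBR201C-A (2.84). In the untreated strains *HSP42* was already called higher, at 2.45, and YHR022C-A called lower, at -3.19. The others were not called there.

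Amino acid synthesis genes were higher as a group in every pathway of the 5 set out first. For arginine, 8 of 10 genes were called higher, with a median of 1.42, among them the ornithine carbamoyltransferase gene *ARG3* (FPKM 131 and 684, log2 ratio 2.21) and the argininosuccinate lyase gene *ARG4* (1.64). *ARG8* alone stayed near the median of all genes, at 0.06. For lysine, 3 of 8 were called higher (median 0.84), and they were *LYS1* (150 and 1084, 2.68) and the homocitrate synthase genes *LYS20* (1.88) and *LYS21* (1.5). For leucine, isoleucine and valine, 5 of 11 were called higher (median 0.93), led by *LEU4* (2.31) and *LEU1* (1.80) of the leucine branch. For histidine, 2 of 6 were called higher, *HIS5* (1.85) and *HIS4* (1.06), and the median was 0.65. For the aromatic amino acids, 3 of 13 were called higher (median 0.85), with *TRP4* at 2.06. No gene of these 5 lists was called lower. In the untreated strains all of their medians lay below 0, from -0.32 to -0.19, so the difference was not there without the drug. The promoter of *LYS1*, the saccharopine dehydrogenase gene of the last step of lysine synthesis, is shown as the highest called lysine gene, whose printed stretch holds the core of the Gcn4p site, TGACTC. It has 2 matches, in capitals as the reverse complement GAGTCA, at chrIX:420837-421036 on the reverse strand.
LYS1: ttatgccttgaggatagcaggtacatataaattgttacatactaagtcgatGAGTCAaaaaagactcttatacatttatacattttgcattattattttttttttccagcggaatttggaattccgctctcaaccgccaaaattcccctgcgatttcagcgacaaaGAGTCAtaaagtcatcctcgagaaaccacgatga

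The picture was not uniform across amino acids. Of 9 genes for threonine, aspartate and asparagine only the asparagine synthetase gene *ASN1* was called, at 1.70, and the list median was 0.49. Among 7 genes for glutamine, glutamate and proline only the glutamate dehydrogenase gene *GDH3* was called, at 1.08, and *GLN1*, the glutamine synthetase gene that supplies the amino acid charged by Gln4p, stood at -0.83 (FPKM 2963 and 1879). The highest of the 10 groups by FPKM, which holds the wild-type level of *GLN1*, had a median of -0.90. Of 12 serine, glycine and one-carbon genes the serine hydroxymethyltransferase gene *SHM2* was the only one called, at -1.44. The medians of these last lists were -0.01 and -0.07, and both turned positive without centring, at 0.16 and 0.10. These single genes were chosen after their values had been seen.

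Sulfur genes differed in both directions. Of 10 sulfate assimilation genes 8 were above 0 and 2 below, with a median of 0.87. *MET1* (1.74) and *MET22* (1.02) were called higher. The 2 below 0 were called lower. *MET3*, the ATP sulfurylase gene of the first step, had an FPKM of 551 in wild type and 102 in tetO-*GLN4* (-2.61), and *MET14*, the kinase gene of the next step, had 599 and 190 (-1.83). Among 14 methionine and cysteine genes *STR3*, *MET28*, *STR2* (2.79) and *MET13* (2.41) were called higher, and *SAM2*, one of the S-adenosylmethionine synthetase genes, lower at -1.11. The median of that list was 0.01, so that its strongly higher members were offset by members below 0, such as the cystathionine γ-lyase gene *CYS3* at -0.71. The *GCN4* mRNA itself differed little, with an FPKM of 2374 in wild type (1843 to 2906) and 2942 in tetO-*GLN4* (2264 to 3620). That is a log2 ratio of 0.14 (-0.32 to 0.60), with overlapping intervals. *PCL5*, the cyclin gene that promotes Gcn4p turnover, was called higher, with 615 and 2166 (1.65). *GCN2* stood at 0.04, and *ASC1*, a ribosomal component and general control repressor, was called lower at -1.74, although it overlaps the small nucleolar RNA gene *SNR24*.

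Genes for using poorer nitrogen sources were higher as a group. They are repressed by good nitrogen sources and switched on by the GATA factors Gln3p and Gat1p. Of 27 listed genes 15 were called higher and none lower, with a median of 1.09, and all 27 had a log2 ratio above 0. The list also holds the regulator genes *GLN3*, *GAT1*, *DAL80*, *GZF3*, *URE2* and *UGA3*. *PUT1* (chromosome XII, 425186 to 426616), the proline oxidase gene, had an FPKM of 6.32 in wild type (4.74 to 7.89) and 138 in tetO-*GLN4* (108 to 168), a log2 ratio of 4.28 (3.80 to 4.76). It was followed by the proline permease gene *PUT4* (2.75) and the arginase gene *CAR1* (2.56). *GLN3* itself was called higher, at 1.54. The lowest members were *UGA1* (0.10), *DAL80* (0.22) and the ammonium permease gene *MEP1* (0.28). Amino acid permeases gave 9 of 17 called higher and none lower, with a median of 1.11, led by *DIP5* (2.36), *BAP2* (2.32) and *MUP3* (1.72), and with *TAT1* lowest at -0.95. Of 5 genes for degrading aromatic amino acids 4 were called higher, with a median of 3.09. *ARO9*, the aromatic transaminase gene, went beyond all others with 2.5 against 207 (6.20, interval 5.67 to 6.73), but it overlaps YHR137C-A. The untreated strains had medians of -0.06 for the nitrogen list, 0.31 for the permeases and 0.13 for aromatic degradation. The promoter of *PUT1*, the highest nitrogen gene, is shown with GATAAG in capitals, written as its reverse complement CTTATC, at chrXII:424886-425085 on the forward strand.
PUT1: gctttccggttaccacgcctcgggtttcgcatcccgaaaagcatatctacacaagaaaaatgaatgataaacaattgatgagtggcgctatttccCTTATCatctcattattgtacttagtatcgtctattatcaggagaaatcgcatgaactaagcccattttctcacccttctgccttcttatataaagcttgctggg

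Ribosome genes were lower almost throughout. Of 82 genes listed for the large subunit 57 were called lower and none higher, with a median of -1.17, and all 82 were below 0. The list was taken by gene name and includes *RPP1*, which encodes a subunit of RNase P and is no ribosomal protein gene. Without it, 57 of 81 were called lower and the median was the same. Of 56 for the small subunit 52 were called lower and none higher, with a median of -1.25. The middle 50% of members spanned -1.30 to -0.99 and -1.41 to -1.10, a narrow band beside the SD of 0.94 across all genes. Among the lowest called members were *RPS22B* (FPKM 1659 and 390, log2 ratio -2.26) and *RPS28B* (8830 and 2213, -2.17). *RPL28*, at -3.72, was lower still but not called, and *RPS14B* was the only one above 0, at 0.31. Most of these genes have a near-identical copy, so single values are uncertain. Of 66 mitochondrial ribosomal protein genes 1, *MRPL37* (-1.07), was called, and their median of -0.18 turned to 0.53 with the weighted mean. Of 89 assembly genes 29 were called lower, with a median of -0.86 and *KRR1* (281 and 92.1, -1.78), *NOP7* (466 and 174, -1.60) and *EBP2* (-1.46) at the bottom. This list too was taken by gene name. *DBP1* (1.46), a translation initiation helicase gene and its only member called higher, and *DBP5* (-1.01), an mRNA export helicase gene, are not assembly factors. Without them, 28 of 87 were called lower and none higher. Of 8 RNA polymerase I genes the subunit genes *RPA190* (-1.35), *RPA34* (-1.34) and *RPA135* (-1.07) were called lower. Assembly genes were somewhat lower without the drug too, with a median of -0.34 in the untreated strains and none called, whereas the ribosomal proteins stood at -0.09 and -0.19. With the weighted mean the medians were -0.46 and -0.54 for the subunits and -0.14 for assembly. *NOP7*, needed for maturation of the large subunit, is shown as the lowest assembly gene whose printed stretch holds the PAC element core GATGAG. It has 3 overlapping matches, in capitals, at chrVII:695117-695316 on the forward strand.
NOP7: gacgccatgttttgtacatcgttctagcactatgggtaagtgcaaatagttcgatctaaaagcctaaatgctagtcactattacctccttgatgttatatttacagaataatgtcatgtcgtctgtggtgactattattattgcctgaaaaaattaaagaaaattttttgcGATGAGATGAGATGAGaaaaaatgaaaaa

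Translation factors and the other synthetases also had medians below 0, which for the initiation factors and the synthetases turned positive with the weighted mean. Of 27 initiation factor genes 5 were called lower, *TIF35* (-1.24), *TIF11* (-1.19), *TIF3* (-1.19), *TIF34* (-1.10) and *TIF4631* (-1.08), and the list median of -0.64 became 0.08 with the weighted mean. Of 12 elongation and termination genes 5 were called lower (median -0.97), with *EFB1* at -1.45 and *EFT2* at -1.23, and the exception was *ANB1*, the hypoxic copy of the eIF5A gene, at 2.47 (14.8 and 92.5). The median FPKM of this list in treated wild type was 419. The highest of the 10 groups by FPKM holds this level. All genes of that group had a median of -0.90, with 40.9% called lower, against 41.7% of this list, so the list was close to its level. No other cytosolic tRNA synthetase gene was called in either direction. The 20 genes ranged from -0.97 for *SES1* and -0.92 for *THS1* to 0.15 for *KRS1* and 0.51 for YHR020W, with a median of -0.35 that turned to 0.37 under the weighted mean. The initiation factor and synthetase lists had median FPKM of 267 and 364 in treated wild type. All genes in the group that holds both levels had a median of -0.37. Genes of purine synthesis, a pathway that supplies ATP and GTP, were all below 0, with *ADE17* (-1.64) and *ADE13* (-1.52) called lower of 10, and their median of -0.70 was 0.02 with the weighted mean. Their median FPKM in treated wild type was 545, which lies in the highest group, with its median of -0.90.

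Several abundant glycolysis genes were lower, and several genes for the use of other carbon sources were higher. Of 17 glycolysis and fermentation genes 8 (47.1%) were called lower and 1 higher, with a median of -0.90. The list had a median FPKM of 1419 in treated wild type. The highest of the 10 groups by FPKM holds this level, and all of its genes also had a median of -0.90, with 40.9% called lower. Without the ribosomal protein genes these values were -0.73 and 30.5%. The list as a whole was thus close to other genes of its level. *ADH1*, the fermentative alcohol dehydrogenase gene, had an FPKM of 8300 in wild type (6029 to 10571) and 1688 in tetO-*GLN4* (1294 to 2081), a log2 ratio of -2.47. *TDH2* (-2.44) and *ENO2* (-2.08) followed, whereas *ENO1* was at -0.28 and the minor isozyme genes *PYK2* and *PDC6* were at 0.85 and 1.11. Of 16 hexose transporter genes 5 were called higher and 1 lower, with a median of 0.68. Their median FPKM in treated wild type was 2.7. All genes in the tenth that holds this level had a median of 0.82, with 178 of 656 called higher, so the list did not stand above its level. Without the drug 4 transporter genes were called higher, among them *HXT7* (1.80), *HXT4* (1.33) and *HXT5* (1.22). With the drug *HXT4* was at -0.81 and *HXT7* at -0.72, neither of them called. *HXT1*, a low-affinity glucose transporter gene, was lower (1462 and 417, -1.98), while *HXT5* (9.65 and 47.0, 2.11) and *HXT17* (1.49 and 7.24, 2.11) were higher. Of 14 genes of glucose sensing and phosphorylation 3 were called higher and 1 lower, with a median of 0.23, and 3 were called higher without the drug. The hexokinase gene *HXK2* was at -1.69 and *HXK1*, whose locus is shared with another gene, at 1.44. Of 15 genes for gluconeogenesis and growth on nonfermentable carbon 8 were called higher (median 1.01), with the malate synthase gene *MLS1* (2.36), the PEP carboxykinase gene *PCK1* (2.08) and the regulator gene *SIP4* (1.99) highest. These 8 had an FPKM of 2.05 to 12.7 in wild type, and *MDH2* was called lower at -1.4. The median FPKM of these 15 genes was 7.24 in treated wild type, and all genes in the tenth that holds this level had a median of 0.44. In the TCA cycle 5 of 17 genes were called higher, including the peroxisomal citrate synthase gene *CIT2* (1.78), and *MDH1* was called lower at -1.09. *CIT2* was already called higher without the drug, at 2.02. The list median was 0.46 with the drug and 0.41 without it, where 2 genes were called higher. Respiratory chain and ATP synthase genes had 2 called higher, *CYC7* (2.75) and *NDE2* (2.03), and 1 lower, *CYC1* (-1.39), of 35. *CYC7* and *CYC1* encode the isoforms of cytochrome c, and the list median of -0.22 was 0.49 with the weighted mean.

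Histone genes and the genes of daughter cell separation were lower, as were some genes of the cell cycle. Of 11 histone genes 10 were called lower, with a median of -2.27, and all 8 core histone genes of the H2A, H2B, H3 and H4 pairs were among them, from *HTA2* (-3.35) and *HHF2* (6426 and 882, -3.04) to *HHT2* (4427 and 1814, -1.46). The centromeric histone gene *CSE4* was at -0.41. Histone mRNAs are short-lived and made in S phase, and those of yeast have short poly(A) tails. Of 25 genes of the G1 to S transition and DNA replication 10 were called lower, with a median of -0.58 that became 0.13 with the weighted mean. They include the PCNA gene *POL30* (-2.51), the ribonucleotide reductase gene *RNR1* (-2.23) and the G1 cyclin gene *CLN2* (-2.16), whereas the replicative helicase genes *MCM4* and *MCM5* were at 0.14 and 0.17. This list stood at -0.42 in the untreated strains, with 2 genes called lower there. Of 16 genes of G2 and mitosis 4 were called lower, *CLB1* (-2.44), *CLB2* (-1.87), *HOF1* (-1.63) and *SWI5* (-1.46), and the median of -0.18 turned to 0.54. Of 11 daughter separation genes, targets of the Ace2p factor and its relatives in early G1, 10 were called lower with a median of -2.10. *CTS1*, the chitinase gene, was at -2.56 (2229 and 424), *EGT2* at -2.5 and *AMN1* at -2.49, and the exception was *PIR3*, named above as one of the highest genes of all. Cell wall genes divided, with 11 called lower and 5 higher of 35. *CWP1* (-2.66), *CWP2* (-2.22) and *GAS1* (-2.17) were lowest and the anaerobic genes *DAN1* (2.76) and *PAU5* (2.13) highest, both at an FPKM of 10 or less, and the median of -0.21 became 0.50 with the weighted mean.

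Stress genes were higher in part. Of 30 general stress genes 18 were called higher and 3 lower, with a median of 1.28, against 0.24 with 6 and 3 called in the untreated strains. After *RTS3*, the highest were the disaggregase gene *HSP78* (FPKM 17.6 and 148, log2 ratio 2.90) and the small heat shock gene *HSP42* (28.3 and 223, 2.81). The 3 called lower were *YGP1* (673 and 99.0, -2.94), *HSP12* (4657 and 2575, -1.02) and *HOR7* (-1.02), and the membrane stress gene *HSP12* was lower still without the drug, at -2.05. Chaperone genes showed no common direction. Of 33, *HSP82* (2.63), the Hsp90 activator gene *AHA1* (2.13), *STI1* (1.47) and *SSA1* (1.20) were called higher, and *MGE1* (-1.12), *SSZ1* (-1.06) and *SSB1* (-1.02) lower, and the median of -0.05 was 0.12 without centring. *SSZ1* and *SSB1* belong to the ribosome-bound chaperones. Of 32 proteasome genes 3 were called higher (median 0.29), which at 9.38% is near the 9.19% of all genes. Among the 3 was *RPN4*, the activator of proteasome genes, at 1.23. Of 34 genes of autophagy and vacuolar hydrolases 9 were called higher and 1 lower (median 0.61), and *ATG1*, the kinase gene at the head of autophagy, had 4.66 in wild type and 54.8 in tetO-*GLN4* (3.39, interval 2.93 to 3.85). The promoter of *HSP78* is shown as the highest general stress gene whose printed stretch holds the stress response element CCCCT, the site of Msn2p and Msn4p. It has 3 matches, in capitals on either strand, at chrIV:974344-974543 on the reverse strand.
HSP78: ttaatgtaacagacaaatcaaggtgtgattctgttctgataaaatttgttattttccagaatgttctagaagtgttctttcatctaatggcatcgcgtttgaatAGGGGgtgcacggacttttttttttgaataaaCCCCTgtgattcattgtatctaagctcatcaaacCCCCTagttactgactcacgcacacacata

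**Figure D2:**
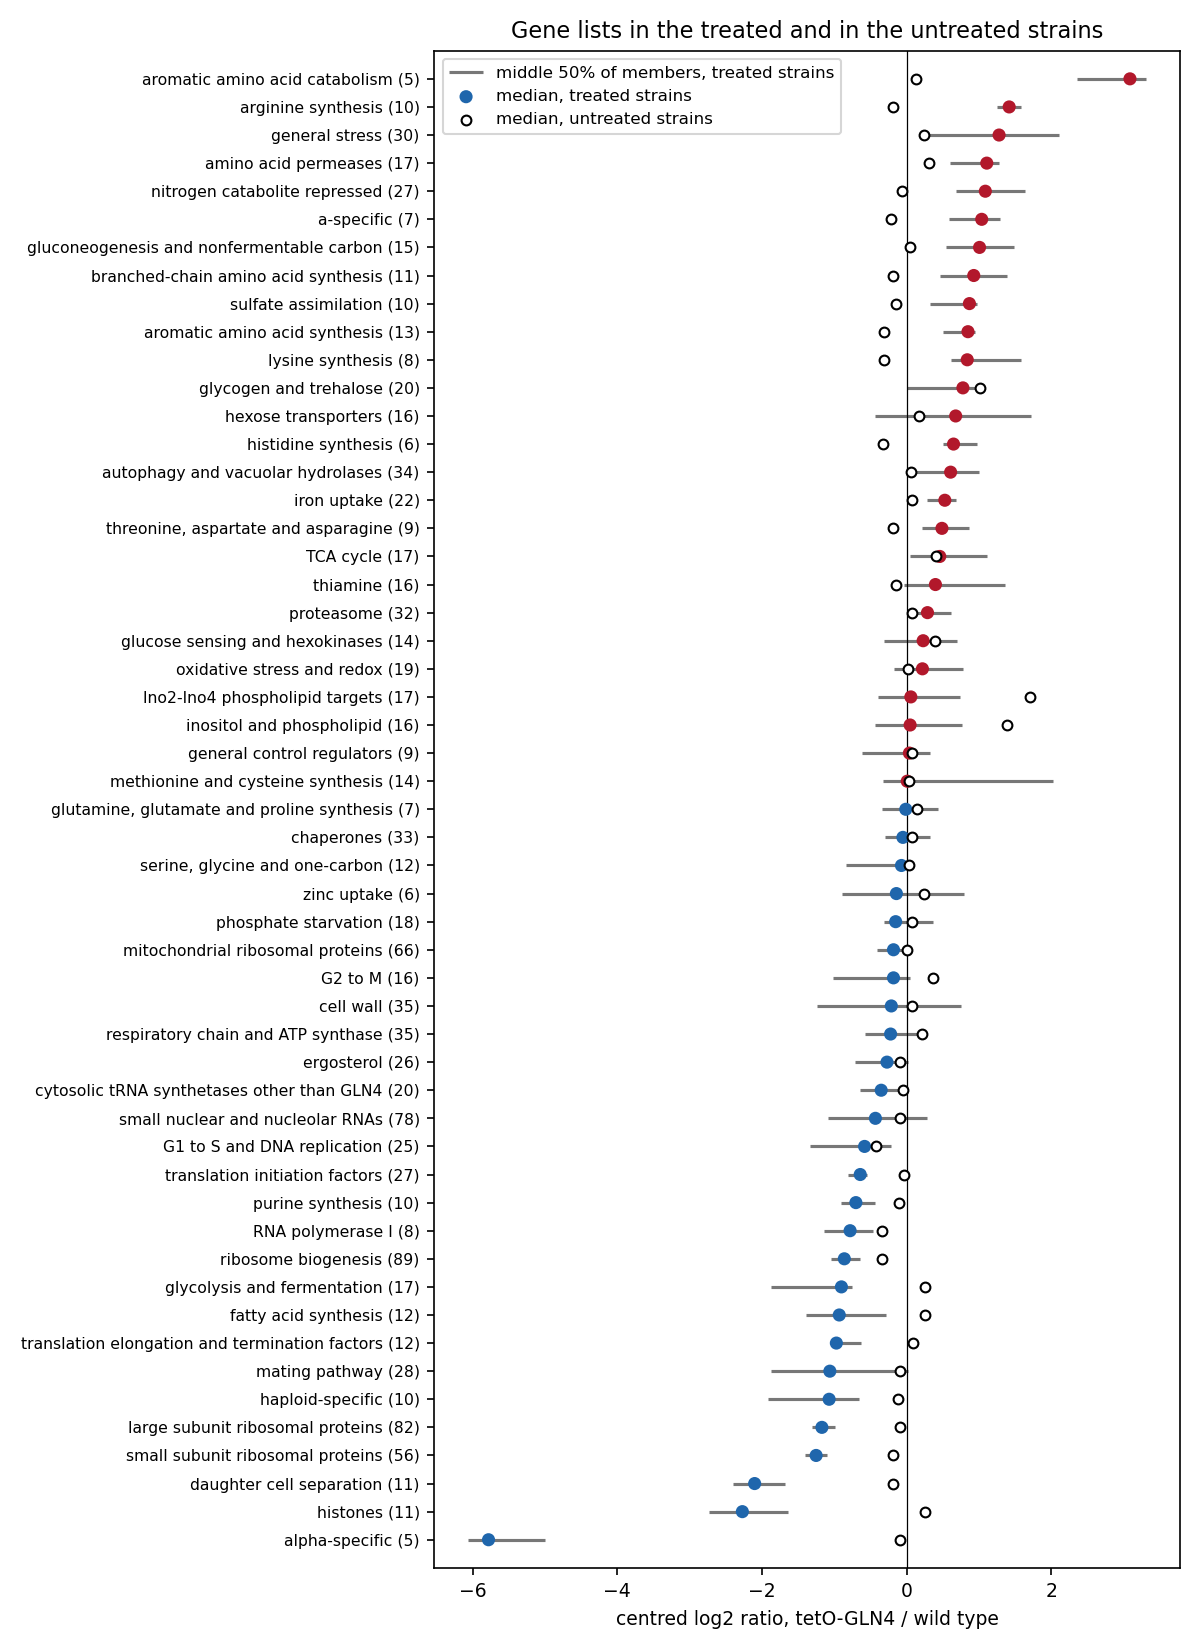
Each row is a gene list, with the number of its genes in the comparison in parentheses, and the horizontal axis is the centred log2 ratio, tetO-GLN4 over wild type. Filled circles are the medians in the treated strains (red above 0, blue below), bars span the middle 50% of members and open circles are the medians in the untreated strains. Aromatic amino acid catabolism is highest at 3.09 and the α-specific genes are lowest at -5.78, and 15 of the 53 medians change sign with the weighted mean and 5 without centring, all of them between -0.70 and 0 as plotted.

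The treated strains were then set beside the untreated ones, which share no sample with them, to see which differences were there without the drug. Of 6538 genes in both comparisons, 44 were called higher in both, which is 7.31% of the genes called higher with the drug and 33.1% of those called higher without it. For the lower genes the count was 5, *FIG1*, *YGP1*, *CLB6*, *HES1* and *HSP12*, or 0.828% and 22.7%. The genes higher in both included *HSP42*, *HXK1*, the disaggregase gene *HSP104* (1.54 untreated and 1.47 treated) and the glycogen genes *GLC3* (3.29 and 1.61) and *GLG1* (1.60 and 1.36). Of the 155 genes among these that were called without the drug, 89 were no longer called with it. That was 59.4% of the higher and 45.5% of the lower ones. Of the genes not called without the drug, 82.1% were not called with it either.

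**Figure D3:**
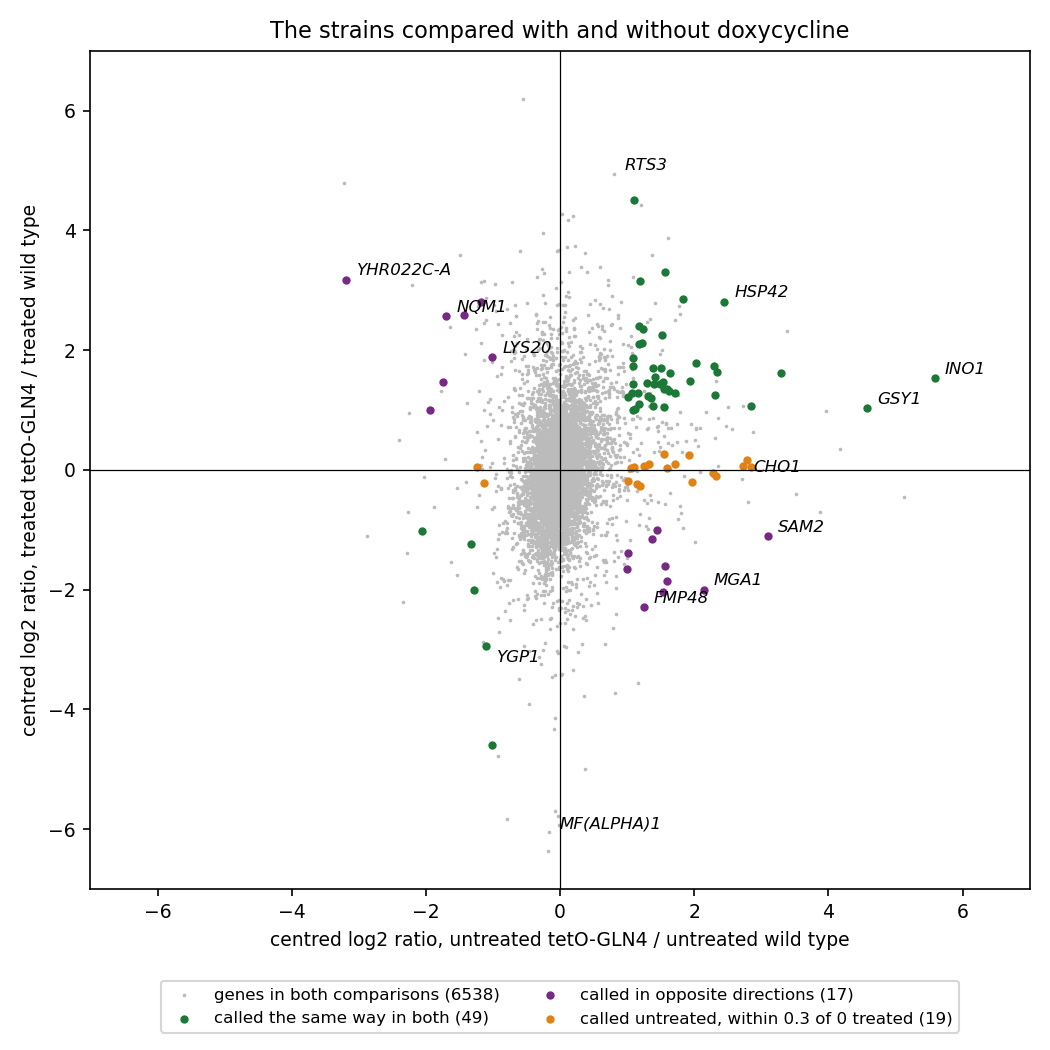
Each point is a gene, with its centred log2 ratio between the untreated strains on the horizontal axis and between the treated strains on the vertical axis, tetO-GLN4 over wild type in both. The cloud is taller than wide (SD 0.94 against 0.48). Green marks the 49 genes called in the same direction in both comparisons, purple the 17 called in opposite directions and orange 19 genes called without the drug and within 0.3 of 0 with it. 1 gene lies outside the axes.

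Opposite calls in the treated and the untreated strains were seen for 17 genes. Of the genes called higher without the drug, 7.52% were called lower with it, no more than the 9.25% of all genes. Of the 22 called lower without the drug, 31.8% were called higher with it, against 9.19% of all genes. The 10 that were higher in tetO-*GLN4* without the drug and lower with it are *SAM2*, *FAS1*, *YHB1*, *CYC1*, *MGA1*, *FMP48*, *RPI1*, *OPT2*, *KNH1* and YPL014W. *SAM2* had an FPKM of 230 in untreated wild type and 2176 in untreated tetO-*GLN4* (log2 ratio 3.09), and of 266 and 139 in the treated strains (-1.11). The flavohaemoglobin gene *YHB1* had 73.0 and 234 without the drug (1.53), and 86.3 and 23.7 with it (-2.03). *FMP48* went from 1.24 to -2.29 and the fatty acid synthase gene *FAS1* from 1.45 to -1.01. The 7 in the opposite sense are *LYS20*, *NQM1*, *FMP23*, *NCA3*, YDR034W-B, YHR022C-A and YOR338W. *LYS20* had an FPKM of 199 and 109 without the drug (-1.02), and of 193 and 798 with it (1.88). *NQM1*, a transaldolase gene, had 24.2 and 8.26 (-1.70), and then 20.2 and 135 (2.57). In all 17 genes, the wild type was within 0.42 of its untreated level on the log2 scale except for YHR022C-A, at -1.57.

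Phospholipid genes differed less between the strains with the drug than without it. They are activated by Ino2p and Ino4p when inositol is scarce and repressed by Opi1p. Of 16 inositol and phospholipid genes 12 were called higher in untreated tetO-*GLN4*, with a median of 1.39, whereas with the drug 1 was called higher and 1 lower and the median was 0.05. *INO1*, the inositol phosphate synthase gene of the pathway's first step, had an FPKM of 6.28 in untreated wild type and 333 in untreated tetO-*GLN4* (log2 ratio 5.58), and of 4.97 and 16.2 in the treated strains (1.54). *CHO1*, the phosphatidylserine synthase gene, had 186 and 1367 without the drug (2.73), but 195 (156 to 234) and 230 (181 to 278) with it (0.06, interval -0.35 to 0.48). The treated strains thus overlapped. Within tetO-*GLN4* the same values gave a log2 ratio of -2.57 for the drug, and both statements rest on the 1 treated sample group. For a list of 17 Ino2p and Ino4p targets, added after the values had been seen, the median was 1.71 without the drug, with 16 called higher, and 0.06 with it. All of these except *FAS1*, *FAS2*, *ACC1*, *CDS1* and *HNM1* are also in the list of 16, so this is no separate result. A like return to near the median of all genes was found for 19 genes with an FPKM of at least 20 in untreated tetO-*GLN4*, called there and within 0.3 of 0 in the treated strains. These were also chosen after their values had been seen, and among them are the phospholipid genes *PSD1*, *CDS1*, *HNM1*, *OPI1* and *CPT1*, the polyamine transporter gene *TPO4* (2.84 and 0.04), the phosphate carrier gene *PIC2* (2.32 and -0.10), the phosphoglucomutase gene *PGM2* (2.29 and -0.06) and the trehalose synthase gene *TPS1* (1.59 and 0.03). Glycogen and trehalose genes as a list were higher in both comparisons, with 7 of 20 called with the drug and a median of 0.78, against 10 called and 1.01 without the drug. Fatty acid synthesis genes had a median of 0.26 without the drug, with 4 called higher. With the drug their median was -0.93, with 6 called lower and 1 higher, and *SUR4* (-1.59), *FAA3* (-1.55) and *ELO1* (-1.44) were lowest. The promoter of *CHO1* is shown because the gene has the largest untreated difference among the phospholipid genes of these 19 that share no locus. CATGTG, the core of the inositol-sensitive element, is in capitals as its reverse complement CACATG at chrV:208575-208774 on the reverse strand.
CHO1: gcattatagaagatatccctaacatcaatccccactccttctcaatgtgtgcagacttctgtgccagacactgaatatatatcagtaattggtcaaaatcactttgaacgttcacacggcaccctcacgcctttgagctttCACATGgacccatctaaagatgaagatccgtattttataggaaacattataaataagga

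**Figure D4:**
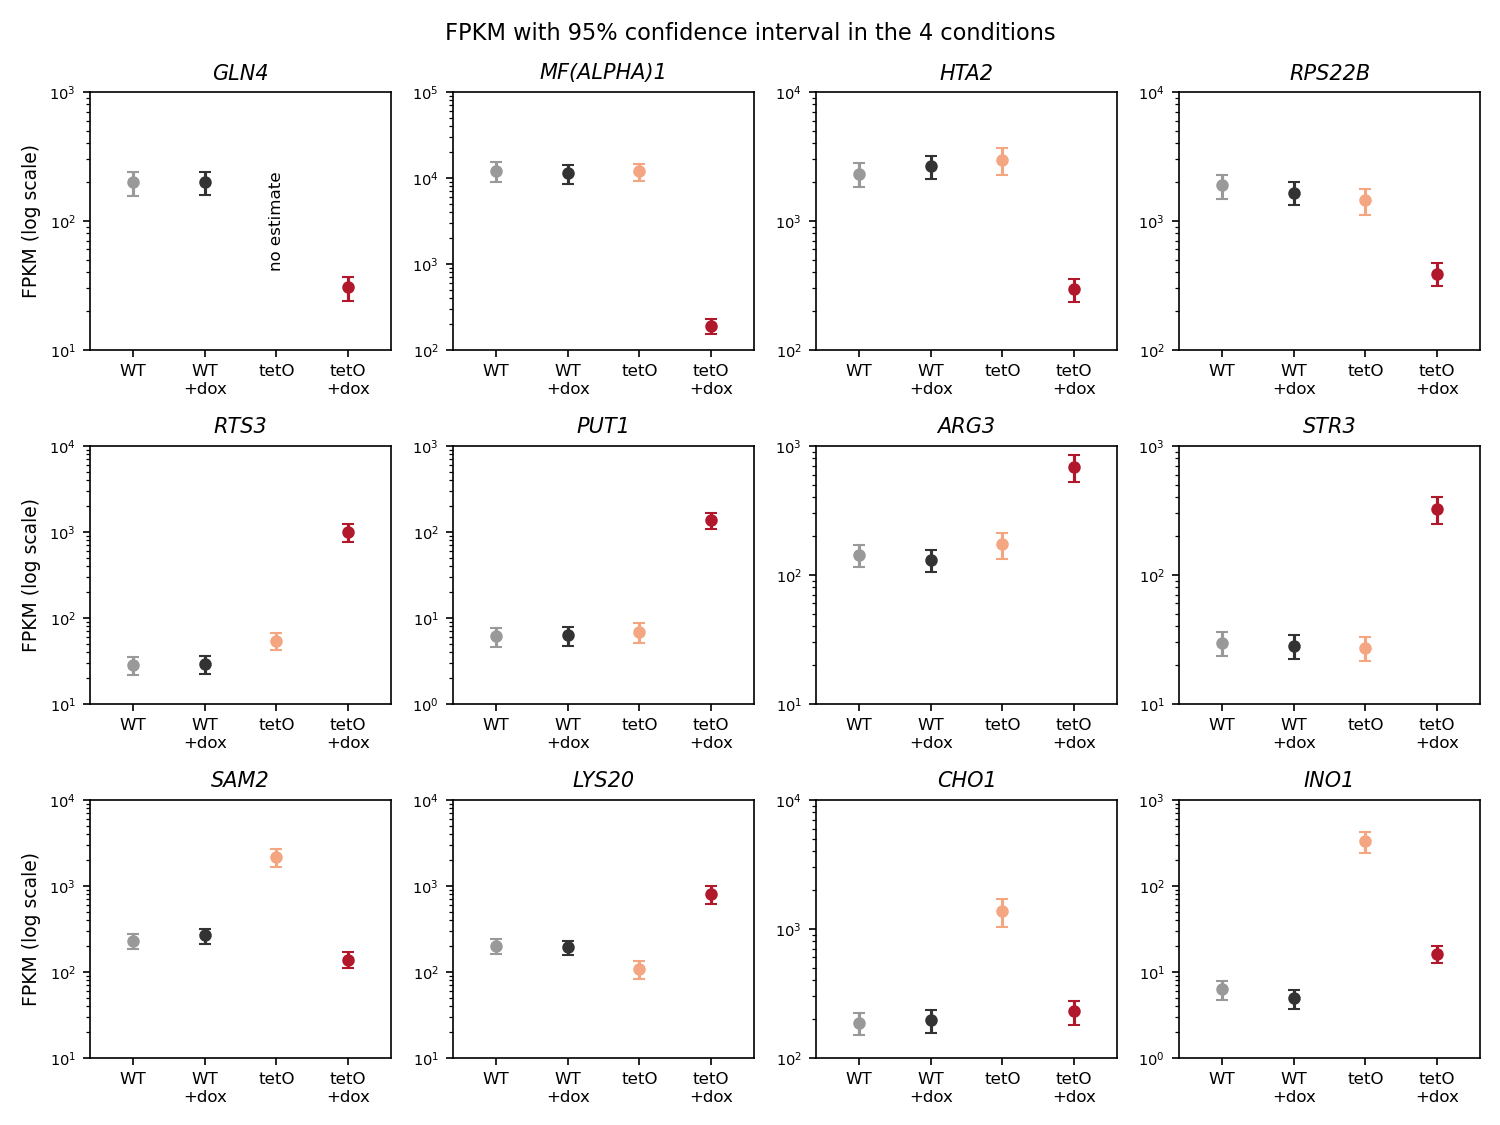
FPKM of 12 genes (log scale) in untreated wild type, wild type with doxycycline, untreated tetO-GLN4 and tetO-GLN4 with doxycycline, with the deposited 95% confidence intervals as bars. The wild-type values with and without the drug lie close together. GLN4, MF(ALPHA)1, HTA2 and RPS22B are lowest in treated tetO-GLN4 and RTS3, PUT1, ARG3 and STR3 highest, while SAM2 and LYS20 cross the wild type and CHO1 and INO1 are highest in untreated tetO-GLN4.

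The wild type was nearly the same with and without the drug for these groups. The list medians of its drug effect lay between -0.12, for general stress, and 0.15, for histones. By arithmetic the treated difference is the untreated one plus the effect of the drug in tetO-*GLN4* minus its effect in the wild type, up to a constant, so the within-strain values are given only side by side. In tetO-*GLN4* the drug effect had a median of 1.61 for arginine genes, where the treated strains differed by 1.42, and of -1.05 and -1.13 for the ribosomal proteins, where they differed by -1.17 and -1.25. For assembly genes it was -0.43 where the treated strains differed by -0.86, and for glycogen and trehalose genes -0.50 where they differed by 0.78.

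Promoters of called genes were searched for the core sites of factors known to act on these groups, on both strands of the 300 bases before the start codon, in 5848 genes. TGACTC was found in 16% of genes called higher, 3.63% of those called lower and 7.92% of all, and in 62.5% of the 48 genes of the 5 amino acid lists. CCCCT was found in 34.5%, 18.7% and 22.4%, and in 76.7% of the general stress list. GATAAG was found in 21.9%, 10% and 14.5%, and in 51.9% of the nitrogen list. Each of these sites was thus more frequent among the higher genes. The reverse was seen for GATGAG, with 14.1% of the higher, 24.4% of the lower and 18.6% of all genes and 84.3% of the assembly list, and for TGAAACA, with 5.21%, 9.15% and 7.06% and 46.4% of the mating list. For CATGTG, searched after the values had been seen, the shares differed less, at 8.68%, 6.74% and 7.15%, with 70.6% of the Ino2p and Ino4p targets. In the last 150 bases the order of the higher and lower shares was the same for all 6 motifs, but the shares in the lists were smaller. GATAAG was then found in 3.7% of the nitrogen list, below the 7.59% of all genes, TGAAACA in 10.7% of the mating list, CATGTG in 11.8% of the Ino2p and Ino4p targets and TGACTC in 22.9% of the amino acid lists. A match says that the letters are present, not that a factor is bound, and the median log2 ratio of all genes with TGACTC was 0.29, against -0.02 for those without.

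**Figure D5:**
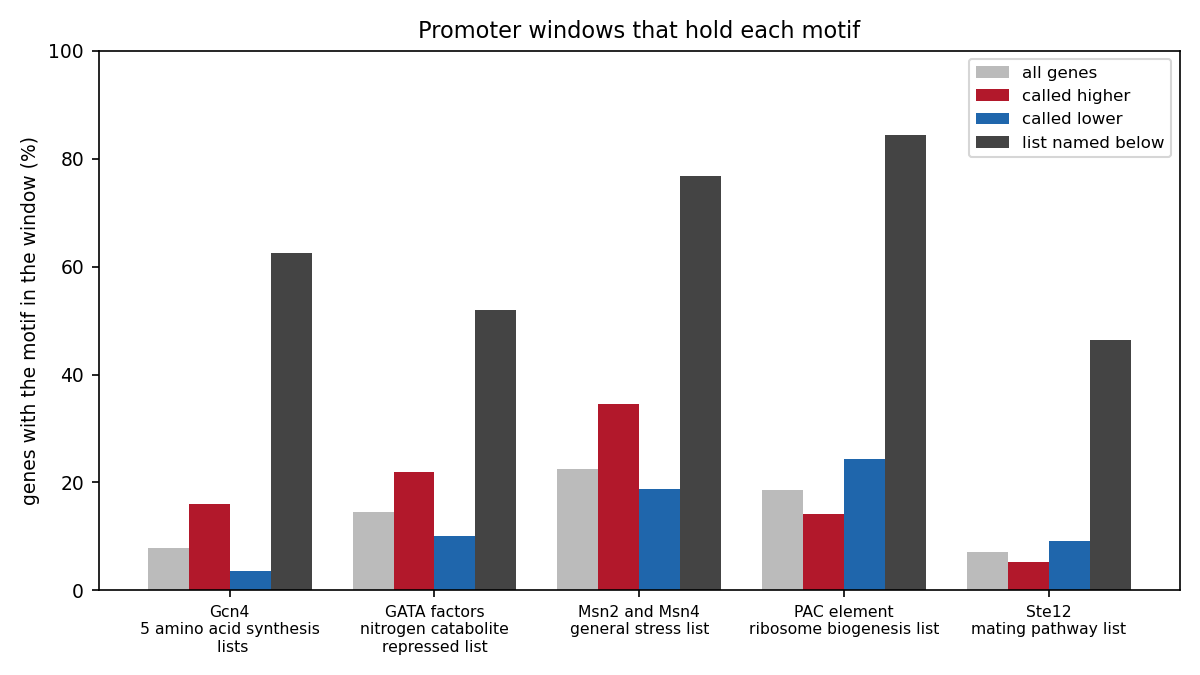
Share of promoter windows (%, axis from 0) that hold the core site of each factor on either strand, for all genes, genes called higher, genes called lower and the list named under the factor. Sites of Gcn4, the GATA factors and Msn2 and Msn4 are more frequent among higher than lower genes, and those of the PAC element and Ste12 less frequent.

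The glutamine content of the encoded proteins showed little relation to the log2 ratio. Glutamine codons made up a median of 3.36% of the codons of genes called higher (middle 50% 2.67 to 4.28), 3.68% of those called lower (2.82 to 4.57) and 3.69% of all. Across 5562 genes of at least 100 codons the rank correlation was -0.06, and it was 0.07 for the number of codons. Among 5 equal groups of genes by glutamine share, 12.6% were called higher in the lowest and 8% in the highest group, with medians of 0.07 and -0.03. The median log2 ratio of the 16 chromosomes lay between -0.06 and 0.13, and between -0.12 and 0.04 for genes with an FPKM of at least 10, so that no chromosome stood apart from the others.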

How the data were processed

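The libraries were made by the authors from poly(A)-selected mRNA with a stranded kit, and per the submitters' processing notes TopHat 1.4.0, Cufflinks and Cuffdiff were used with the sacCer3 (R64) build. The deposited values are FPKM, which the authors computed with Cuffdiff for each strain separately, with 1 value and 95% interval per gene and condition. The deposited columns of fold changes, p-values and q-values were not used. Read depth is unknown here, because the values used are FPKM and not read counts.

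Tables were joined on the gene identifier. Log2 ratios carry no pseudocount and were centred on their median, and approximate 95% intervals of a ratio were derived from the deposited upper bounds. The call rule was tested on simulated data. Promoters and codons were read from R64 of RefSeq, in which 6041 of 6048 deposited loci held the gene of that name. Sequences end 101 bases before the start codon, since transcript starts are not annotated.

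Named genes are *GLN4* with 2 neighbours on each side, the 4 auxotrophy genes, the 12 highest and 12 lowest called genes with an FPKM of at least 10, and the 3 highest and 3 lowest of each list. Any other gene was picked with its values known. There were 51 gene lists and 2 added ones, and members and lists were chosen with earlier results of these data known. One gene that the naming rule selects is not reported here. Printed promoters are that of *GLN4*, those of the most extreme called member of a list whose printed stretch holds the motif, and that of *CHO1*, chosen after its values were seen. Alternatives were other centring, pseudocounts of 1 and 0.1, FPKM minimums of 1 and 10, other call rules, and leaving out shared loci or noncoding genes. Python 3.11.15, pandas 2.3.3, numpy 2.4.6 and scipy 1.17.1 were used.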

Additional observations from a re-analysis of the deposited data

How the results depend on the processing

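The counts of 602 higher and 606 lower genes depended on scaling and on the call rule. Without centring, 798 genes were called higher and 403 lower. With the weighted mean, 2001 were called higher and 137 lower. Intervals lying apart without the 2-fold rule gave 1069 higher and 1160 lower genes, a 1.5-fold rule 1069 and 1159, and a 4-fold rule 138 and 99. Each of these follows from the setting itself. The other settings, including pseudocounts, FPKM minimums, leaving out shared loci and protein-coding genes alone (added after the data were seen), gave 425 to 752 higher and 471 to 702 lower genes. Leaving out *RPP1*, or *DBP1* and *DBP5*, from the lists that took them in by name (also added) left both medians at -1.17 and -0.86. No paired analysis was possible because the values combine the 3 cultures of a condition. Leaving out a culture was not possible for the same reason. The strain and its tet-off cassette cannot be told apart from each other in this comparison.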

Other observations

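Genes close to chromosome ends were more often higher. Of 261 genes within 25 kb of an end 24.9% were called higher and 3.83% lower, with a median log2 ratio of 0.47, while of 5595 genes farther away 9.17% were called higher and 10.2% lower. These genes have low levels, with a median FPKM of 8.91 in treated wild type against 54.4. With an FPKM of at least 10 in both strains, 15.1% of 126 end genes and 6.98% of 5016 others were called higher, and the medians were 0.24 and -0.06. The part of level in this result was not tested further.

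Of 22 iron uptake genes 2 were called higher, the siderophore transporter gene *SIT1* (1.61) and the haem oxygenase gene *HMX1* (1.90), which at 9.09% is near the 9.19% of all genes. The list median was 0.53, at a median FPKM of 20.7 in wild type, and all genes in the tenth that holds this level had a median of 0.25. Of 16 thiamine genes 4 were called higher, with *THI13* (2.32) and *THI4* (1.76) highest, and the phosphatase gene *PHO3* was the only one called lower (-3.50). Of 26 ergosterol genes 4 were called lower, with *ERG6* at -1.19, and 1 higher, the regulator gene *ECM22* at 1.71, and the median of -0.27 was 0.45 with the weighted mean. Of 19 oxidative stress genes 3 were called higher, with *OYE3* at 3.31 (FPKM 2.27 and 25.3), and the thioredoxin gene *TRX1* lower at -1.35. Of 18 phosphate genes 3 were called higher and 1 lower, and of 6 zinc genes 1 was called higher, and their medians of -0.15 and -0.14 were 0.02 and 0.03 without centring. Small nuclear and nucleolar RNA genes gave 10 of 78 called lower and 2 higher, and their median of -0.43 was 0.28 with the weighted mean. These RNAs mostly lack poly(A) tails, so the libraries hold them only in part.

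Of the 56 genes listed at 0 in one treated strain only, 29 had an FPKM under 1 in the other and 18 at least 10, and 14 of those 18 are tRNA or small RNA genes. No fold is given for them. *PMA1*, the plasma membrane proton pump gene, had an FPKM of 3422 in treated wild type and 1245 in treated tetO-*GLN4* (log2 ratio -1.63) and no estimate in untreated tetO-*GLN4*.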
